A study of Mus musculus with 12 samples.

Results

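The miR-26 family peaks are places in the mouse transcriptome where RNA fragments were sequenced joined to miR-26a-5p or miR-26b-5p. They were taken by name from 4 deposited peak lists, without peaks annotated to mitochondrial rRNA or to Gm42418, which overlaps an rRNA-like repeat. The lists hold 250567 peaks in all, and 245769 remained after the same exclusion, of which 17610 were family peaks. The list of anti-Ago2 replicates 1 to 4 held 17345 of them among 242044 remaining peaks, that of anti-Ago2 replicates 5 to 7 held 235 of 3020, the excitatory neuron list held 30 of 704, and the IgG list held 0 of 1.

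The assay, CIMERA-seq, crosslinks RNA to protein with ultraviolet light, pulls down Argonaute and ligates each small RNA to the target fragment beside it, so that 1 chimeric read names both. All 12 libraries came from forebrain of C57BL/6 mice aged 10 to 12 weeks, and the labels give every sample the same treatment: tamoxifen at 2 mg a day for 5 days, followed by 14 to 21 days. The excitatory libraries (3) used an anti-myc antibody against a tagged Ago2, switched on by Cre recombinase fused to the tamoxifen-responsive ERT2 domain under the Camk2a promoter, so they hold Argonaute from the neurons that recombined. The forebrain libraries (4 and 3) used an anti-Ago2 antibody and take in all cell types, and the IgG libraries (2) used a control antibody. Whether the mice behind the anti-Ago2 and IgG libraries carried the Cre and the tag is not given in the sources used here.

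Each list was called on its libraries together, so a list is 1 observation with no spread between replicates. Every test below compares lists and covers counting error only, and number of libraries, depth and list length cannot be told apart from the antibody or the cell type. The lists of replicates 5 to 7 and of excitatory neurons share 3 library numbers and are not independent of each other by label. A peak carries a score, a whole number set by the authors with a lowest value of 3, whose definition is not given in the sources used here. It is not scaled to library size, so scores are compared within a list, or side by side as they stand. Intervals are 95% Wilson intervals.

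A microRNA guides Argonaute to messenger RNAs mainly by pairing through its seed, the bases near its 5' end, and the bound transcript is then translated less or decayed. The miR-26 genes lie in introns of genes for small CTD phosphatases: Mir26b in Ctdsp1, Mir26a-1 in Ctdspl and Mir26a-2 in Ctdsp2. These phosphatases act with REST to silence neuronal genes outside neurons, and miR-26 is widely expressed in neurons and glia. Genes often named as miR-26 targets include Ezh2, a histone methyltransferase, and Gsk3b, a kinase of axon growth.

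Both members were found in the RefSeq miRNA table. The mature sequences are shown because they decide which member a chimeric read is assigned to. Capitals mark the seed, bases 2 to 8.
miR-26a-5p: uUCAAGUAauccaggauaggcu
miR-26b-5p: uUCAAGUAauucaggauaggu
The members have 22 and 21 bases and the same seed. They differ by C11U and C21U, counted from the 5' end with the miR-26a-5p base first, and miR-26a-5p has 1 base more at the 3' end. Of 1679 mature mouse miRNA names in the table, only these 2 had this seed. The miR-26 genes lie at chr1:74394310-74394394 (Mir26b), chr9:119031796-119031885 (Mir26a-1) and chr10:126995530-126995613 (Mir26a-2), all on the plus strand of GRCm38.

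miR-26a-5p was the third most frequent small RNA by peaks in both anti-Ago2 lists and the sixth in the excitatory list. After removal of peaks annotated to mitochondrial rRNA or Gm42418, the family made up 7.17% of peaks in replicates 1 to 4 (7.06 to 7.27%), 7.78% in replicates 5 to 7 (6.88 to 8.79%) and 4.26% in the excitatory list (3.00 to 6.02%). The anti-Ago2 intervals overlap, and the excitatory interval lies below both. miR-26a-5p in the excitatory list fell by 3.35 points against replicates 5 to 7 (adjusted p = 0.0126 by a two-sided Fisher's exact test over 39 small RNAs, with the Benjamini-Hochberg method). That test called 14 of the 39 small RNAs (35.9%), 8 of them lower (20.5%) and 6 higher (15.4%), so a call in this pair is not rare. The call was lost when peaks below their list's median score were dropped (the share then fell by 2.71 points, adjusted p = 0.280 by the exact test). Against replicates 1 to 4 the difference was -2.73 points (interval -3.99 to -0.97), which did not pass the exact test (adjusted p = 0.0823). There 10 of 243 small RNAs were called (4.12%), 4 lower (1.65%) and 6 higher (2.47%).

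Between the anti-Ago2 lists the miR-26a-5p share differed by 0.63 points (interval -0.27 to 1.63, adjusted p = 1 by the same exact test). Of the 243 small RNAs 7 were called (2.88%), 3 lower (1.23%) and 4 higher (1.65%). The picture was different among peaks in coding sequence (CDS) and untranslated regions (UTRs) alone. There miR-26a-5p made up 8.18% in replicates 5 to 7 and 5.04% in replicates 1 to 4, and the difference of 3.15 points passed (Fisher's exact test, adjusted p = 1.6e-08). This setting called 12 of 198 small RNAs (6.06%). In the same setting the excitatory share was 4.12%, a difference of -0.91 points to replicates 1 to 4, which did not pass. There 5 of 198 small RNAs were called (2.53%). Against replicates 5 to 7 the difference was -4.06 points, which passed (Fisher's exact test, adjusted p = 0.00642, with 8 of 30 called, 26.7%).

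miR-26b-5p contributed few peaks of its own. It held 432 of 17345 family peaks in replicates 1 to 4 (2.49%), 5 of 235 in replicates 5 to 7 and none of 30 in the excitatory list. In replicates 1 to 4, 391 of its 432 peaks (90.5%, 87.4 to 92.9%) overlapped a miR-26a-5p peak, whereas 396 of 16913 miR-26a-5p peaks (2.34%) overlapped one of miR-26b-5p. The miR-26a-5p score was the higher in 384 of the 396 overlapping pairs, equal in 7 and lower in 5, with a median ratio of 7.33. The median miR-26a-5p score was 32 in these pairs and 4 over all its peaks. The peaks of miR-26b-5p lay at the higher-scoring miR-26a-5p peaks. The members differ at few bases, and the part of misassigned reads in this overlap was not tested.

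**Figure D1:**
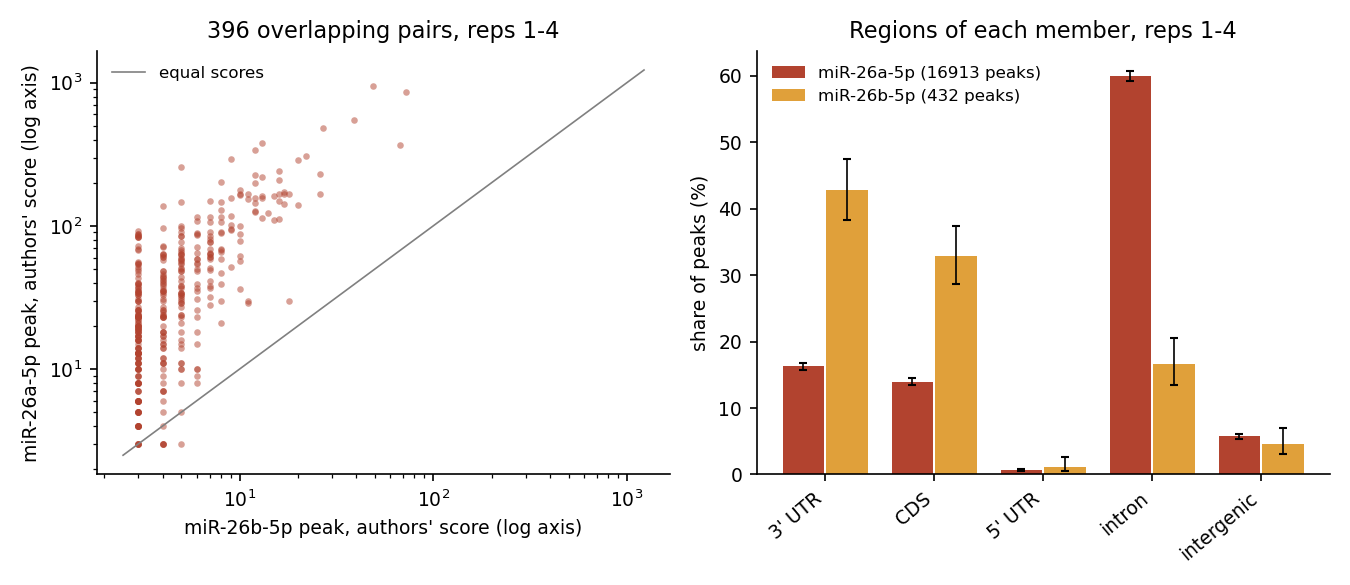
Left, authors' score of each overlapping miR-26a-5p and miR-26b-5p peak pair in replicates 1 to 4 on log axes, 1 point a pair, with the line of equal scores; 384 of 396 points lie above it. Right, share of each member's peaks by annotated region with 95% Wilson intervals; introns hold 60.0% of miR-26a-5p peaks and 16.7% of miR-26b-5p peaks.

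The members' peaks lay in different regions. The median score over all peaks was 4 for each, but most miR-26b-5p peaks overlapped higher-scoring miR-26a-5p peaks. Region also changed with score, as given below, and the part of score in the members' difference was not tested. In replicates 1 to 4, introns held 60.0% of miR-26a-5p peaks and 16.7% of miR-26b-5p peaks, and 3' UTRs held 16.3% and 42.8%. For the whole family, introns held 10222 peaks (58.9%, 58.2 to 59.7%), 3' UTRs 2938 (16.9%), CDS 2507 (14.5%), intergenic places 988, lincRNAs 237, 5' UTRs 123 and annotated miRNA genes 16. The same shares over all other small RNAs were 47.6% for introns, 19.1% for 3' UTRs and 23.7% for CDS. Among the 32 small RNAs with at least 1000 peaks, miR-26a-5p ranked 3 by intronic share, close to miR-9-3p (61.4%) and miR-124-3p (61.4%). It ranked 29 by CDS share and 29 by 3' UTR share.

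The shorter lists had another make-up. In replicates 5 to 7, 139 of 235 family peaks lay in 3' UTRs (59.1%, 52.8 to 65.2%), 55 in CDS (23.4%), 20 in introns (8.51%), 13 in intergenic places, 5 in 5' UTRs and 3 in lincRNAs. The 3' UTR share was 42.2 points above replicates 1 to 4 (Fisher's exact test, adjusted p = 3.4e-46), the CDS share 8.95 points above (adjusted p = 0.00105), and the intronic share fell by 50.4 points (adjusted p = 6.4e-58). These were 3 of the 12 regions tested (25%). Over the other small RNAs the 3' UTR share was 38.6% in replicates 5 to 7, 19.4 points above replicates 1 to 4. Their CDS share was 14.9 points higher and their intronic share fell by 40.5 points. The family's step was thus the larger in 3' UTRs and introns and the smaller in CDS, and these differences between steps were not tested. The excitatory list held 13 family peaks in CDS (43.3%, 27.4 to 60.8%), 11 in 3' UTRs (36.7%, 21.9 to 54.5%), 4 in intergenic places and 2 in introns. Against replicates 1 to 4 its intronic share fell by 52.3 points (adjusted p = 3.0e-08), its CDS share was 28.9 points higher (adjusted p = 7.7e-04) and its 3' UTR share 19.7 points higher (adjusted p = 0.0458), again 3 of 12 regions (25%) by Fisher's exact test. Over the other small RNAs the same steps were -43.3 points in introns, 26.5 in CDS and 11.3 in 3' UTRs.

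**Figure D2:**
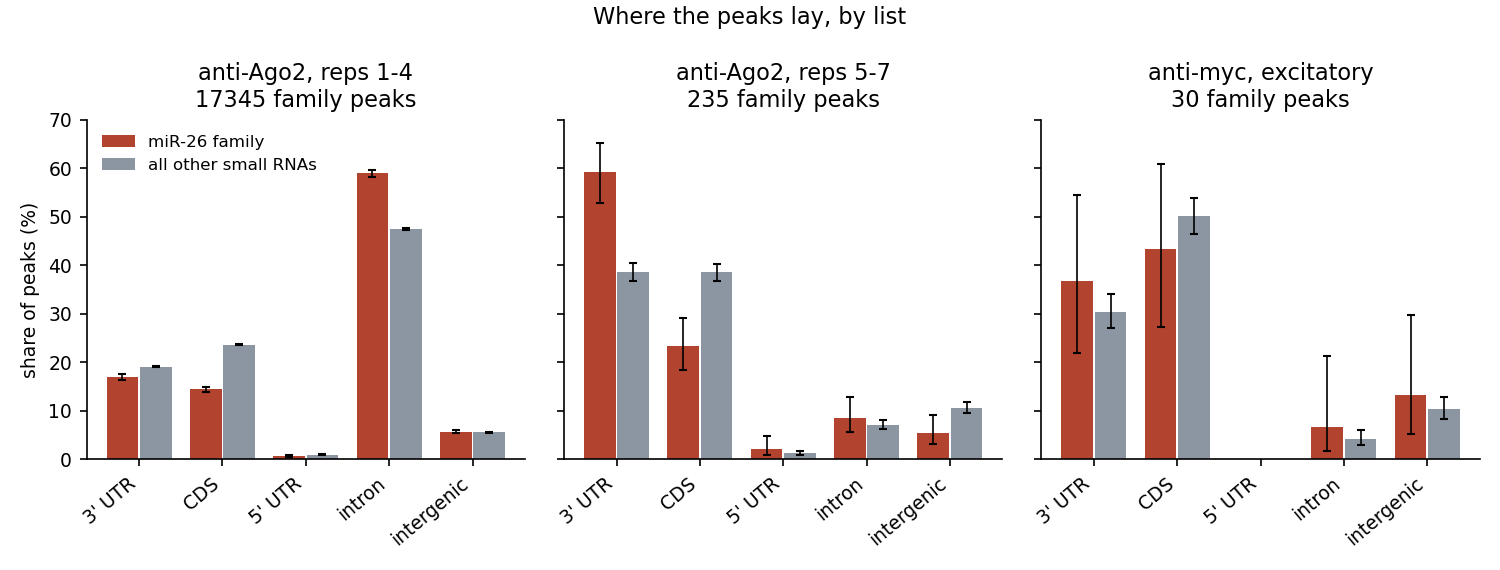
Share of peaks (%) by annotated region in each list, for the miR-26 family and for all other small RNAs, with 95% Wilson intervals; no 5' UTR bar stands in the excitatory panel because regions without a family peak were not drawn. Introns lead in replicates 1 to 4 (58.9% of family peaks), 3' UTRs in replicates 5 to 7 (59.1%).

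These differences changed when the longer list was cut to its highest scores, which alters score and length together. With replicates 1 to 4 reduced to their 235 highest-scoring family peaks, 3' UTRs held 51.9% and introns 3.40%, and no region differed from replicates 5 to 7 (Fisher's exact test, adjusted p = 0.275 for 3' UTRs, 0.371 for CDS and 0.182 for introns, the last 2 with the sign turned). When peaks below each list's median score were dropped instead, the differences in 3' UTRs (40.4 points, adjusted p = 4.5e-23) and introns (-45.7 points, adjusted p = 4.0e-29) still passed the exact test, and that in CDS did not (4.67 points, adjusted p = 0.514). Reduced to 30 peaks, replicates 1 to 4 had the same 3' UTR share as the excitatory list, 36.7%. Between the excitatory list and replicates 5 to 7 no region of 4 passed Fisher's exact test (0%), with 2 at an unadjusted p below the threshold: 3' UTRs fell by 22.5 points and CDS was 19.9 points higher (adjusted p = 0.0601 for each). The CDS difference passed the exact test without the intergenic places described below (25.9 points, adjusted p = 0.0262, an alternative chosen after seeing the data).

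Within replicates 1 to 4 the region followed the score. At the lowest score, 3, 69.5% of 7089 family peaks were intronic (68.4 to 70.6%) and 10.99% lay in 3' UTRs. At scores of 4 to 5 the intronic share was 62.9%, at 6 to 9 it was 51.0%, and at 10 to 29 it was 26.5%. Among the 428 peaks scoring 30 or more it was 6.07% (4.18 to 8.75%), while 48.8% lay in 3' UTRs (44.1 to 53.6%) and 31.5% in CDS. Other small RNAs ran the same way, from 58.9% to 7.16% intronic. At scores of 30 or more 3' UTRs held 32.4% of their peaks (31.2 to 33.7%), below the family's interval, and CDS 41.3%.

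**Figure D3:**
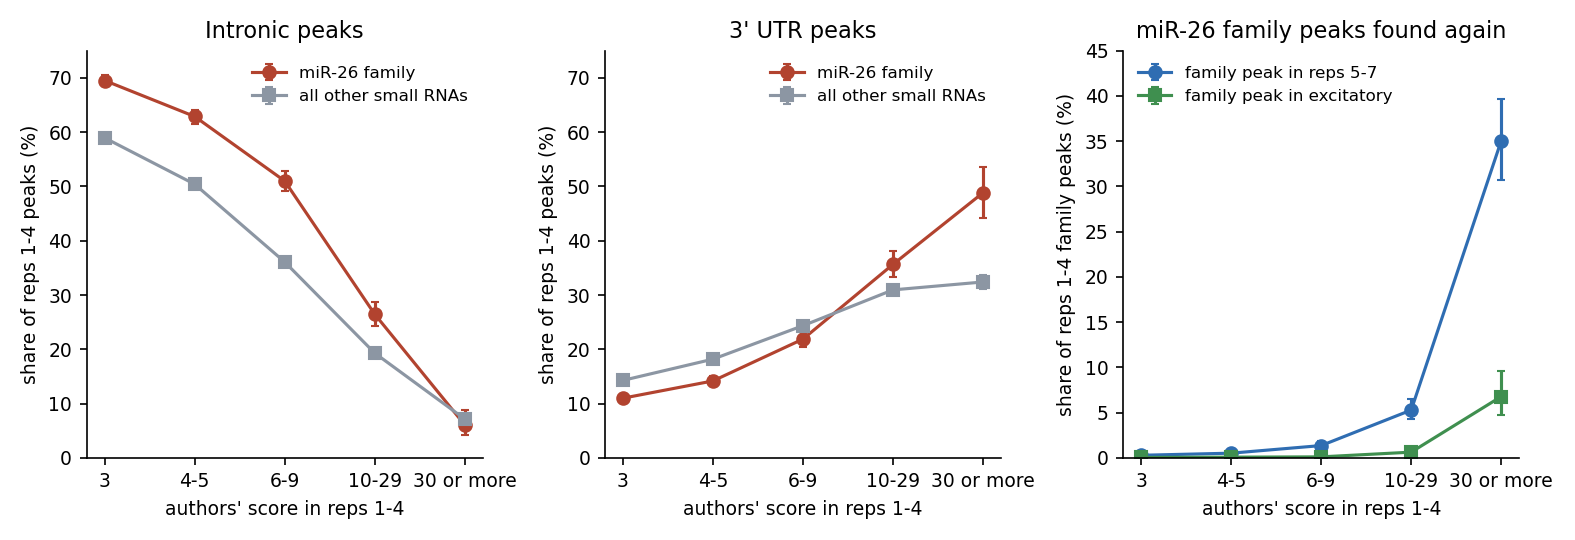
Left and centre, share of peaks in replicates 1 to 4 (%) that were intronic or in 3' UTRs, by authors' score, for the miR-26 family and all other small RNAs; right, share of family peaks in replicates 1 to 4 overlapped by a family peak of the other lists. Bars are 95% Wilson intervals. The intronic share of family peaks runs from 69.5% down to 6.07%, and the share found again in replicates 5 to 7 from 0.28% up to 35.0%.

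Intronic peaks were many and low. They lay in 1797 genes, 48.2% of them had the lowest score, and their highest score was 168, against 862 in 3' UTRs and 340 in CDS. The genes with the most were long neuronal ones: Kcnip4, a potassium channel partner, with 269, the protocadherin Pcdh9 with 190, the neuregulin Nrg3 with 185, the receptor phosphatase Ptprd with 166 and the splicing regulator Celf2 with 153. Nrxn3 (149), a presynaptic adhesion molecule, Lsamp (126), a limbic cell adhesion protein, Fgf14 (122) and Dlg2 (122), a postsynaptic scaffold, were among those that followed. The family made up 7.95% (Dlg2) to 10.3% (Ptprd) of all intronic peaks in the 10 genes with the most, around the 8.73% over all intronic peaks. These 10 genes together held 15.9% of intronic family peaks, and their RefSeq spans ran from 703246 bases (Fgf14) to 2270506 bases (Ptprd).

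In mature transcript regions, 3125 of 9672 genes with any CDS or UTR peak in replicates 1 to 4 had a family peak (32.3%), 185 of 1333 in replicates 5 to 7 (13.9%) and 24 of 427 in the excitatory list (5.62%). Of the 3125, 1924 had 1 peak, 136 had at least 5 and 19 at least 10. Slc1a2, the astrocytic glutamate transporter, led with 26 peaks, 22 of them in its 3' UTR, and the highest scored 366. Map2, a dendritic microtubule protein, had 24, of which 18 lay in CDS, with its highest score, 227, in the 3' UTR. Camk2a, the kinase of synaptic plasticity whose promoter drives the Cre, had 15, Sptbn1 (spectrin) 15, Macf1 (a cytoskeletal linker) 14, and Map1a and the adenylyl cyclase Adcy1 13 each. These counts do not allow for length or abundance: the family held 5.09% of all Slc1a2 peaks, 3.23% of Camk2a peaks and 8.51% of Map2 peaks, against 5.36% over all genes.

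In some genes the family held a larger share of the peaks. Fzd6, a Wnt receptor, had 10 family peaks among 18 peaks of all small RNAs (55.6%), the highest share among the 3095 genes with at least 10 CDS or UTR peaks. They fell at 6 places, the highest in the 3' UTR at chr15:39036674-39036675 with a score of 113. The miR-26b-5p peaks among them (scores of 13, 6, 4 and 4) overlapped miR-26a-5p peaks, so the share counts those places for both members. Replicates 5 to 7 had 1 peak in the gene, with a score of 3. Tanc2, a postsynaptic scaffold, had 12 among 60 (20%), Paqr8, a membrane progestin receptor, 10 among 71 (14.1%), Pafah1b1 (Lis1, a dynein regulator) 10 among 91 (10.99%) and Tnrc6a 12 among 90 (13.3%). Further genes among the 20 with the most peaks included Sparcl1 (12), Ank2 (11), Gprasp1, Myo5a, Qk and Gpm6a (10 each) and Abr (9).

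**Figure D4:**
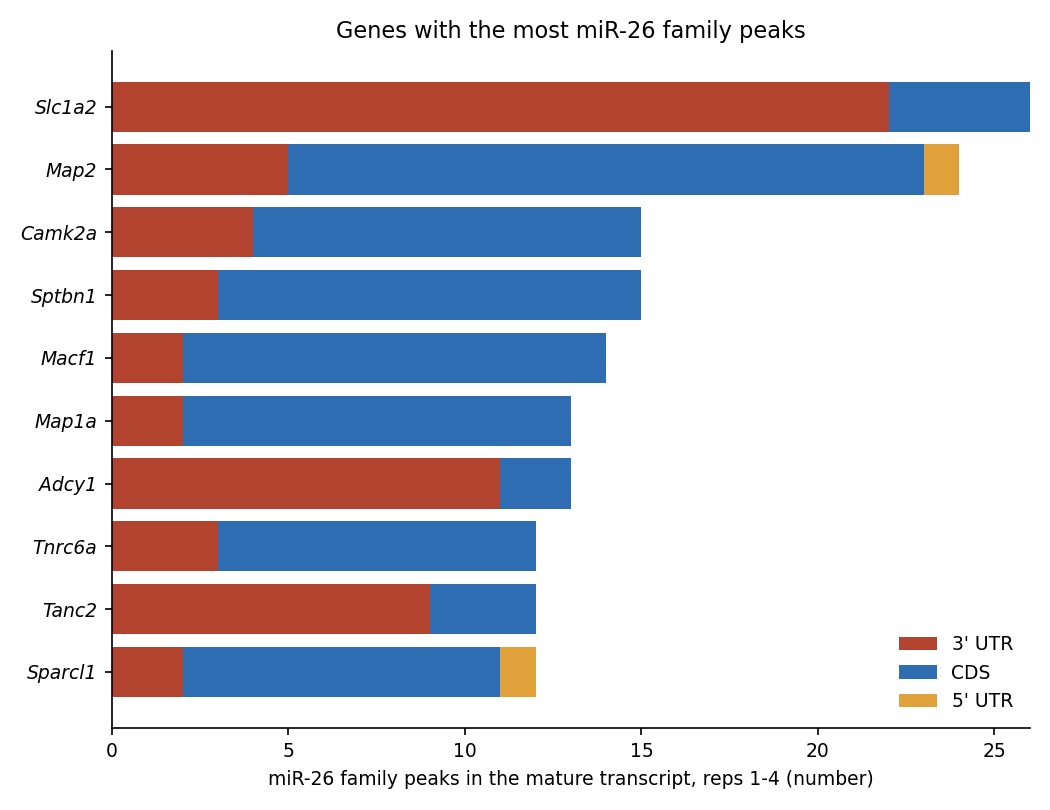
Number of miR-26 family peaks in the 3' UTR, CDS and 5' UTR of the 10 genes with the most, replicates 1 to 4. Slc1a2 (26) is mostly 3' UTR, Map2 (24) mostly CDS.

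The highest-scoring family peak in a gene lay in the 3' UTR of Larp1, an RNA-binding protein of mTOR signalling, at chr11:58061166-58061179 with a score of 862. miR-26b-5p scored 72 at the same place, and replicates 5 to 7 had a score of 9. The 3' UTR of Acsl3, a long-chain acyl-CoA synthetase, followed at chr1:78706463-78706466 (486, and 21 in replicates 5 to 7), then those of the aminopeptidase gene Lnpep (378), Slc1a2 (366) and Itfg1 (359). Abr, a regulator of small GTPases, had 2 CDS peaks with scores of 340 and 294. Pde10a, the striatal phosphodiesterase, had one in its 5' UTR (309, chr17:8946828-8946840) and one in CDS (287). The 3' UTR of Rgs4, a brake on G protein signalling, closed these 10 with 256. Region names are the authors' 1 name a peak: in Pde10a the miR-26b-5p peak over the CDS peak was annotated as intronic, and 5 of the 396 overlapping pairs had different region names.

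Peaks of the shorter lists were mostly found in the long one. Of 235 family peaks in replicates 5 to 7, 217 shared 1 base or more, strand included, with a family peak of replicates 1 to 4 (92.3%, 88.2 to 95.1%), and other small RNAs did so for 88.8% of theirs. The share was 133 of 139 in 3' UTRs, 53 of 55 in CDS and 13 of 20 in introns (65.0%, 43.3 to 81.9%). With a reciprocal overlap of 50% it was 64.7%. Of the 30 excitatory peaks, 28 were found in replicates 1 to 4 (93.3%, 78.7 to 98.2%) and 21 in replicates 5 to 7 (70%, 52.1 to 83.3%). For other small RNAs of the excitatory list these shares were 94.2% and 52.8%. In the other direction, a family peak of replicates 5 to 7 covered 35.0% of the 428 peaks that scored 30 or more in replicates 1 to 4 and 0.28% of those that scored 3.

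At 20 places a family peak stood in all 3 lists: 10 in CDS, 7 in 3' UTRs, 3 in intergenic places and none in an intron. In 17 of the 20, miR-26b-5p was present as well. Their scores in replicates 1 to 4 had a median of 210 and a minimum of 44, against a median of 4 over all family peaks.

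Among signalling genes, the CDS of Abr (chr11:76422154-76422180) scored 340 in replicates 1 to 4, 11 in replicates 5 to 7 and 9 in excitatory neurons. The CDS of Prkaca, the catalytic subunit of protein kinase A, scored 241, 15 and 7 at chr8:83986902-83986926. The 3' UTR of Rgs4 scored 256, 14 and 7 at chr1:169742215-169742234. Rgs4 was among the 10 highest family peaks in CDS and UTRs in all 3 lists. Abr was among them in replicates 1 to 4 and excitatory neurons, and Prkaca in replicates 5 to 7 and excitatory neurons. For the CDS of Camk2a the scores were 148, 8 and 3, and for the CDS of Gprasp1, which sorts receptors to lysosomes, 199, 15 and 3, so both sat at the lowest possible score in excitatory neurons.

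Among cytoskeletal and membrane genes, the CDS of Cyfip1, a partner of FMRP and the WAVE complex, scored 232, 12 and 6 at chr7:55930059-55930082. The 3' UTR of Map2 scored 227, 23 and 6 at chr1:66439817-66439836. The 3' UTR of Cd200, a neuronal ligand that restrains microglia, scored 221, 13 and 9 at chr16:45383403-45383421. Map2 had the highest family score of any gene in replicates 5 to 7, and Cd200 shared the highest of any gene in excitatory neurons with Abr. The 3' UTR of Itfg1 scored 359, 20 and 5, that of the lipid phosphatase gene Mtmr4 141, 7 and 4, that of Cacnb4, a calcium channel subunit, 95, 5 and 3, and that of Agpat3 65, 5 and 4. The CDS of Slc3a2, an amino acid transporter subunit, had the lowest of these scores in replicates 1 to 4 (44, 4 and 3).

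In nuclear and metabolic genes, the CDS of Med13l, a Mediator subunit, scored 115, 3 and 5. That of Mkl2, a cofactor of serum response factor, scored 124, 5 and 5, that of Ipo11, an importin, 63, 3 and 3, and that of the glycolytic enzyme gene Aldoa 84, 5 and 4. Med13l was the one gene of these 17 whose excitatory score was above that of replicates 5 to 7, by 2.

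**Figure D5:**
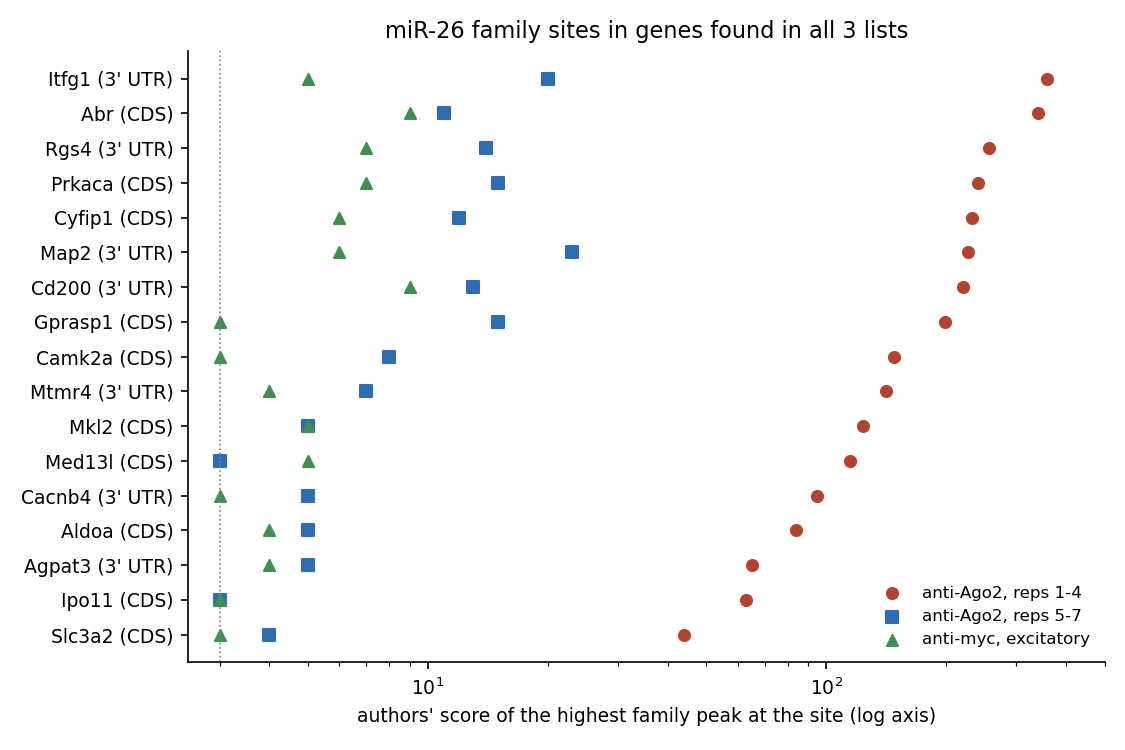
Authors' score (log axis) of the highest miR-26 family peak at each of the 17 places in genes that held one in all 3 lists; circles are replicates 1 to 4, squares replicates 5 to 7 and triangles excitatory neurons, and the dotted line is the lowest score, 3. Scores run from 44 to 359 in replicates 1 to 4, from 3 to 23 in replicates 5 to 7 and from 3 to 9 in excitatory neurons; scores are not scaled to library size.

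The excitatory list also held 8 family peaks found in replicates 1 to 4 and not in replicates 5 to 7. They included peaks in the 3' UTRs of Mras (score 5), Fam107a (3) and Syngr3 (3), in the CDS of Crmp1 (4), Cfap20 (3) and Sez6l (3), and in an intron of Ppp1r12b (3). Of the 10 oligodendrocyte markers listed, 1 had a family peak in the excitatory list, with 4 peaks of all small RNAs, and the part of RNA from other cells in this list was not tested. Of the 10 excitatory neuron markers, 2 had any peak there (Camk2a 13, Grin2b 1), and of the astrocyte markers 1 (Sparcl1, 3). No inhibitory neuron, microglia or vascular marker had one. No astrocyte, inhibitory neuron, microglia or vascular marker had a family peak there, and 1 of the 10 excitatory neuron markers did (Camk2a). None of the 24 excitatory family peaks in CDS or UTRs overlapped an excitatory peak of another small RNA.

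Among the cell type markers in replicates 1 to 4, 7 of 10 astrocyte genes held a CDS or UTR family peak (Slc1a2 26, Sparcl1 12, Glul 4), 6 of 10 excitatory neuron genes (Camk2a 15), 5 of 10 oligodendrocyte genes (Mbp 7), 3 of 10 inhibitory neuron genes and 3 of 10 vascular genes. None of the 10 microglia genes did, with 31 peaks of all small RNAs among them. The family's share of all CDS and UTR peaks was 4.10% in the astrocyte list, 3.896% in the excitatory neuron list, 7.09% in the oligodendrocyte list, 4.35% in the inhibitory neuron list and 4.55% in the vascular list, around the 5.36% over all genes, and 32.3% of all genes with a peak held a family peak. In replicates 5 to 7 the genes with one were Slc1a2, Gja1 and Sparcl1 of the astrocyte markers, Mbp and Camk2a. Fewer cells of a type and less RNA per cell cannot be told apart in these libraries.

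The genes often named as miR-26 targets were met in part. In replicates 1 to 4, 34 of the 51 held a CDS or UTR family peak, 43 held a peak of any small RNA, and the family made up 8.25% of their peaks against 5.36% over all genes. Of all genes with such a peak, 32.3% held a family peak. Gsk3b had 5 peaks with a highest of 23. Tet3, a DNA demethylase, had 6, all in the 3' UTR, with a highest of 77. Zcchc11 (Tut4), a uridylyl transferase of small RNAs, had 4 in CDS, with a highest of 209 at chr4:108542668-108542679. Arpp19, a phosphatase regulator, reached 154 and the autophagy kinase gene Ulk2 58. Ezh2 had no family peak, nor a CDS or UTR peak of any other small RNA. In replicates 5 to 7, 7 of the 51 had one (Tet2, Ulk2, Tnrc6b, Arpp19, Ube4b, Tob1 and Ctdsp2), among 19 with any peak, against 13.9% over all genes. The family held 8 of the 44 peaks in these genes (18.2%, against 8.35% over all genes). In the excitatory list none had one, among 5 with any peak. Those 5 held 6 peaks in all, too few to set against the 4.12% over all genes.

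Of the host genes, Ctdsp2 held 2 family peaks in its 3' UTR with a highest score of 21 and 1 in replicates 5 to 7, and Ctdsp1 and Ctdspl held none in CDS or UTRs. Of the 12 genes of the REST and CTDSP repressor complex, 6 had a family peak in replicates 1 to 4, among them Rest and Ctdsp2 with 2 each and Rcor1, Hdac2 and Kdm1a with 1 each. The 12 together held 8 family peaks among 83 peaks of all small RNAs (9.64%, against 5.36% over all genes). Of the 12, 10 had any peak, and 32.3% of all genes with a peak held a family peak. In PI3K, Akt and GSK3 signalling 13 of 24 genes had one. Beside Gsk3b these included Phlpp1, an Akt phosphatase (2 in CDS, highest 79, and 5 in replicates 5 to 7), and Pik3r1, a PI3K regulatory subunit (3). Among 20 chromatin genes 11 had one, led by Tet3 and by Dnmt3a, a DNA methyltransferase (4 in the 3' UTR, highest 92). The family's share of peaks was 5.97% in the signalling list and 5.4% in the chromatin list, near the 5.36% over all genes.

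Genes of the miRNA pathway themselves held family peaks. Tnrc6a, whose GW182 protein links Argonaute to deadenylation, had 12 at 8 places, with a summed score of 744, equal to that of Slc1a2. They included CDS peaks of 167 at chr7:123184161-123184169, 162 and 156 and a 3' UTR peak of 126. Its paralogue Tnrc6b had 8, with a highest score of 168 in the 3' UTR at chr15:80929711-80929723 and 13 in replicates 5 to 7, and Tnrc6c had 4 with a highest of 61. Ago2 had 3 in its 3' UTR (highest 40), Xpo5 3, Dicer1 2 and Ago1 1. With Zcchc11, 8 of the 16 listed genes had one, among 14 with any peak, and 32.3% of all genes with a peak had one. The family held 37 of their 497 peaks (7.44%), against 5.36% over all genes. In replicates 5 to 7, Tnrc6a, Tnrc6b, Tnrc6c and Ago2 together held 5 family peaks, among 15 peaks of all small RNAs in the list (33.3%, against 8.35% over all genes). The 2 in Tnrc6b lay at 1 place.

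Of 29 synaptic genes, 23 had a family peak in replicates 1 to 4, against 32.3% of all genes with a CDS or UTR peak. The list had many peaks (2745), and the family share of them was 4.34%, below the 5.36% over all genes. After Map2 and Camk2a came Gria2, an AMPA receptor subunit (8, highest 57), Shank1, a postsynaptic scaffold (8, highest 13), and the vesicle calcium sensor gene Syt1 (8, highest 12). Homer1, a scaffold of glutamate receptors, had 3 with a highest of 117. In replicates 5 to 7, Map2 had 3, Gria2 2, and Camk2a, Dlg2, Homer1 and Ddn 1 each. The family share of the list's peaks there was 8.33%, against 8.35% over all genes.

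Within 3' UTRs the family peaks did not gather at one end. Their median relative position from the 5' end of the annotated UTR was 0.48 in replicates 1 to 4, and 0.47 for other small RNAs. Of 5 equal segments of the UTR, the first and the last each held 22.4% of family peaks, and the middle segment held 16.7%. Of all family peaks in replicates 1 to 4, 22.3% overlapped a peak of another small RNA, with 36.7% in 3' UTRs, 35.0% in CDS and 14.7% in introns. The same share was 16.8% for miR-124-3p, 20.5% for miR-9-5p, 29.8% for miR-128-3p and 56.4% for miR-29a-3p, which shares its seed with other miR-29 members. The partner met most often was miR-124-3p, at 1703 family peaks (9.82%), which is also the small RNA with the most peaks (72011).

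Some peaks lay on other miRNAs. In replicates 1 to 4, 15 family peaks lay on 14 mature miRNA arms, every one wholly inside the arm, with scores of 3 to 11 and a median of 4. The arms, from the RefSeq table (GRCm38), are shown because they give the sequence under the peak. A peak is a called interval, so its ends need not be those of a sequenced fragment. Capitals mark the bases under the miR-26a-5p peak.
miR-30e-5p: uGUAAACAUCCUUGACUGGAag
let-7g-5p: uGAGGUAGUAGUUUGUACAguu
miR-132-3p: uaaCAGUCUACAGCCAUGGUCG
miR-29a-3p: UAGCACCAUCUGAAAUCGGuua
miR-128-3p: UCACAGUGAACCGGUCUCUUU
miR-30e-5p had the highest score (11), and let-7g-5p, miR-132-3p and miR-29a-3p had 5 each, and miR-128-3p, covered over its whole length, had 3. The other arms were let-7a-5p, let-7f-5p (at 2 genes), miR-16-5p, miR-101a-3p, miR-125a-5p, miR-127-3p, miR-136-5p, miR-331-3p and miR-551b-3p, with scores of 3 or 4. None of the 14 arms held the 6-base seed match of miR-26, ACUUGA, which 4 of the 1679 mature miRNAs hold. Of its bases, miR-30e-5p held the last 5, CUUGA, and miR-551b-3p the first 5, ACUUG. In miR-551b-3p a U stood before these, so that arm held UACUUG, 6 of the 7 bases of the match to the whole seed, UACUUGA. The family made up 7.73% of the 194 peaks of all small RNAs on mature arms, close to its share of all peaks. In the other direction, 5 peaks of other small RNAs lay on the miR-26 genes, led by miR-125b-5p on Mir26b with a score of 18. Which RNA of such a pair acted as the guide was not tested.

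Few peaks could be set against sequence, because sequence at hand covered promoter windows (250 bases before to 50 after a gene's start) and miRNAs only. Of the 17345 family peaks in replicates 1 to 4, 5 lay wholly inside a promoter window, and 2 of these held the seed match on the peak's strand. They are shown with the match to seed bases 2 to 8, or 2 to 7 with an A opposite base 1, in capitals.
Abcd3, CDS, chr3:121815089-121815106, minus strand: agcaagTACTTGAcggca
Lingo2, intron, chr4:35845369-35845398, minus strand, 30 bases of the peak: gcagacaggaccACTTGAAtttttcaccaa
Abcd3 encodes a peroxisomal fatty acid transporter and Lingo2 a neuronal leucine-rich repeat protein, and their peaks had scores of 4 and 3. The peaks in Dbi (5' UTR), Mapkbp1 (3' UTR) and Mir125a held no match. Of 224 peaks of other small RNAs wholly inside such windows 0 held ACTTGA, as did 0.26% of all stretches of 18 bases and 1.07% of all stretches of 59 bases in the windows, the widths of the Abcd3 and Lingo2 peaks. Over whole windows of 300 bases 5.67% of 32851 held it. A match describes letters only, and with 5 peaks no share is drawn from it.

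The highest scores in the lists were at places that the authors annotated as intergenic. On the plus strand of chromosome 3, 11 family peaks of replicates 1 to 4 stood between bases 5860498 and 5860822, with a highest score of 5596 and a sum of 12587, or 9.53% of the summed score of all family peaks. No RefSeq gene lay within 20000 bases. There 213 small RNAs had 366 peaks, and miR-26a-5p had the highest score of them all. The same place held 3 family peaks in replicates 5 to 7 (highest 75) and 1 in the excitatory list (10). Within the RefSeq span of Rn18s-rs5, an 18S rRNA-related gene at chr17:39846354-39848202 of which Gm42418 is another name, the lists held 19, 3 and 2 family peaks that the authors annotated as intergenic, with highest scores of 943, 47 and 15. They stayed among the members, since the exclusion went by annotated name. There miR-128-3p scored higher than miR-26a-5p in all 3 lists (4754, 132 and 40).

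Another place went the other way. On the minus strand of chromosome 16, at bases 21392580 to 21392598, replicates 5 to 7 and excitatory neurons each had 1 family peak, with scores of 19 and 20, the highest excitatory family score. Replicates 1 to 4 had no peak of any small RNA there, although 28 of the 30 excitatory family peaks were found in them. The place had peaks of 10 small RNAs in replicates 5 to 7 and 9 in the excitatory list, and these lists share library numbers. It lies within the RefSeq long noncoding RNAs Gm36224 and Gm36150. Besides it, 17 family peaks of replicates 5 to 7 were not found in replicates 1 to 4, with scores of 3 to 7, led by the 3' UTR of Abi2, and in the excitatory list an intronic peak of Panx3 with a score of 3.

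The IgG list held 10 peaks, of which 7 lay on mitochondrial rRNA and 2 on Gm42418. None was a miR-26 family peak. Since 1 peak remained after the exclusion, that list sets no bound on the family's background.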

How the data were processed

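Members, gene lists and tests were chosen with earlier results of these data known. Peak lists in BED form with the gene and region of each peak were deposited by the authors. They give mm10 coordinates, per the submitters' processing notes, and 1 score a peak, a whole number by the authors that the labels and headers leave undefined. Per the file headers of the deposited calling summaries, peaks needed at least 3 reads and 2 libraries, and were not called by family. The aligner and the peak caller: not given in the sources used here. Read totals per list were not used here, and the labels state 61 to 138 M reads a sample, read as pairs of 150 bases.

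Peaks annotated to Mt-rRNA or Gm42418 were left out of members and totals. Shares between lists were tested with Fisher's exact test (two-sided, SciPy 1.17.1) for every small RNA or region with at least 10 peaks in the pair, with p-values adjusted by the Benjamini-Hochberg method and called at 0.05. Overlaps were found on the same strand with bedtools 2.31.1. The test of shares was tried on simulated lists, and the overlap and merging steps on a few intervals placed by hand. Intervals and floors (3 peaks of the total) cover counting error only, and no p-value measures spread between mice. RefSeq sequences and names are of GRCm38.p6. At its miRNA positions the 15 family peaks on mature arms in replicates 1 to 4 lay wholly inside the arms.

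Named genes are the 20 (replicates 1 to 4) or 10 (other lists) with the most family peaks in CDS and UTRs, the 10 with the most intronic peaks, the 10 highest-scoring peaks of each list, genes with a peak in all 3 lists, and members of the gene lists. Of these only genes that bear on a result are printed. Others, such as the excitatory family peaks found in 1 other list and the genes of peaks in promoter windows, were named after their values were seen. Listed genes that the files give under an older symbol (2, Tut4 as Zcchc11 and Tut7 as Zcchc6) were matched through RefSeq synonyms. Results for some genes are not reported here.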

Additional observations from a re-analysis of the deposited data

Results flagged for a closer look

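Family peaks annotated to mitochondrial rRNA or Gm42418 were left out of the members. They are given because no comparison above used them. They numbered 84 in replicates 1 to 4 (52 on mitochondrial rRNA and 32 on Gm42418), 20 in replicates 5 to 7 (10 and 10) and 1 in the excitatory list (on Gm42418). The IgG list had none, but held only 7 and 2 peaks of all small RNAs at these genes, too few to set a background. In replicates 1 to 4 their median score was 41.5 on mitochondrial rRNA and 88 on Gm42418, against 4 for the members. The family made up 2.06% and 1.98% of all small RNA peaks there, below its 7.17% elsewhere.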

How the results depend on the processing

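Of 86 recomputed values, 69 kept their direction and their side of the threshold, or stayed within the interval. Between the excitatory list and replicates 1 to 4, the miR-26a-5p share passed the threshold with replicates 1 to 4 reduced to equal length (-3.84 points, with 27.8% of 18 small RNAs called), with the excluded mitochondrial rRNA and Gm42418 peaks kept in the total (-2.85 points) and, chosen after seeing the data, without the 3 intergenic places (-3.10 points). In that pair it did not pass in CDS and UTRs alone (-0.91 points) or once peaks below the list median were dropped (-1.95 points). Against replicates 5 to 7 it lost its call once peaks below the list median were dropped (-2.71 points). Between the anti-Ago2 lists it passed in CDS and UTRs alone (3.15 points) and turned sign at equal length (-0.10 points).
Region shares changed when replicates 1 to 4 were cut to equal length by highest score. Then replicates 5 to 7 differed from replicates 1 to 4 by 7.23 points in 3' UTRs, -5.11 in CDS and 5.11 in introns, and excitatory neurons by 0 points in 3' UTRs and 20 in CDS, none past the threshold. With peaks below the list median dropped, the CDS differences were 4.67 and 19.3 points and the excitatory 3' UTR difference 21.1 points, also not past it; the 3' UTR and intronic differences between the anti-Ago2 lists stayed past it. Without the 3 places the CDS difference of excitatory neurons to replicates 5 to 7 passed (25.9 points). A reciprocal overlap of 50% moved recovery in replicates 1 to 4 to 64.7% for replicates 5 to 7 and 73.3% for excitatory neurons. The cause of these changes was not tested.
The seed match share of all peaks and its 4 alternatives were not run, since the sequence used here covers promoters and miRNAs only. No paired analysis was possible because each list was called on pooled libraries, which also leaves no replicate to leave out.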
